A study of Rattus norvegicus with 4 samples.

Results

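Cells that take up more glucose switch on a small set of genes through a pair of sensor proteins, ChREBP (gene Mlxipl) and MondoA (gene Mlxip), and the transcripts of this system were compared between bioprinted and monolayer beta-cell cultures. The choice of genes was made by name, with earlier results of these data known. It took the sensors Mlxipl and Mlxip, their common partner Mlx, and 4 glucose-induced targets, Txnip, Arrdc4, Pklr and Gpd1. Of these 7 genes, 6 were analysed here, out of 23360 gene symbols in all, and Mlxipl was not analysed here. Messenger RNA came from INS-1 832/3 cells, a clone of a rat insulinoma line that carries the human insulin gene, kept under Geneticin selection in RPMI-1640 with serum, HEPES, pyruvate and 2-mercaptoethanol in both groups. The 2D-monolayer group held 2 standard cultures, and the 3D-bioprinted group held 2 cultures printed into GelXA LAMININK 411, a hydrogel with laminin-411. All 4 cultures, described as biological replicates, were harvested after 5 days at passage 3. The groups differed in printing, in UV crosslinking, in hydrogel and in the shape of the culture together, so that these cannot be told apart. With 1 cell line the spread between cultures is that of a single clone.

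The sensors are transcription factors of the basic helix-loop-helix leucine zipper class. Metabolites of glucose release them from the cytoplasm, each binds DNA as a dimer with Mlx, and the dimers recognise carbohydrate response elements, which are paired E-boxes at a fixed spacing in the promoters of target genes. In beta cells, Txnip is among the best known glucose-induced genes. Its protein is an alpha-arrestin that binds thioredoxin and restrains glucose uptake, and sustained high levels of it promote beta-cell death.

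Promoter sequence is shown for the targets whose windows were at hand, because the paired E-box is what the sensors recognise. The windows are those of RefSeq on GRCr8, from 250 bases before to 50 bases after each annotated start, and 4 of the 6 measured genes (Arrdc4, Mlx, Mlxip and Pklr) matched one. The liver-type promoter of Pklr is the classical carbohydrate response promoter. The 250 bases before the start of Pklr (chr2:176841014-176841263, plus strand, GRCr8) and of Arrdc4 (chr1:131793426-131793675, minus strand, GRCr8) follow, 5′ to 3′ on the strand of the gene. Capitals mark in Pklr a match to the motif CACG, any 9 bases and CGTG, which are the outer letters of a pair of E-boxes, and in Arrdc4 the E-box CACGTG and every CCAAT box on either strand.

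Pklr: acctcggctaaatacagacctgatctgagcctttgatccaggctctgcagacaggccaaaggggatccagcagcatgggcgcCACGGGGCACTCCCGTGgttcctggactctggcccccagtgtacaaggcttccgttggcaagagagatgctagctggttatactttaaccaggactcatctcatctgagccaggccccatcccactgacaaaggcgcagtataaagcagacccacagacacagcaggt
Arrdc4: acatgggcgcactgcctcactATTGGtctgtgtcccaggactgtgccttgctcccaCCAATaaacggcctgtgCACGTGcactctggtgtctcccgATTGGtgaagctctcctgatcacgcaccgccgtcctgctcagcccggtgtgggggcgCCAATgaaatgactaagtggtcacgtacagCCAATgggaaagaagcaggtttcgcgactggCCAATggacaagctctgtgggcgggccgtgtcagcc

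The motif in Pklr lay from -168 to -152 relative to the start. It was held by 0.182% of all 33469 windows of the table. The same motif was found in 1 of the 22 windows at hand for 27 further genes reported as glucose-induced ChREBP targets. That gene was Rgs16, a regulator of G-protein signaling, where the match ran from -12 to 5. The 17 bases of both matches, with the outer letters in capitals, were read at chr2:176841096-176841112 (plus strand) and chr13:68438108-68438124 (plus strand).

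Pklr: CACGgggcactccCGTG
Rgs16: CACGggccgggcgCGTG

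In the Arrdc4 window an E-box CACGTG lay from -177 to -172, and the window of Mlx held one from -70 to -65. This hexamer was found in 6.42% of all windows. The Arrdc4 window also held 6 CCAAT boxes, the letters that factor NF-Y binds, where 37.5% of all windows held at least 1. Pairs 5 bases apart were also sought, with the same form repeated in the same direction. The pair was held by 0.00299% of all windows in the form CACGTG and by 0.0359% in the form CACGNG. These forms had no match in the 4 windows. The motif in Pklr itself reads CACGGG, 5 bases and CCCGTG, where CCCGTG is CACGGG on the other strand. It is a pair 5 bases apart in the inverted direction, which the repeated form CACGNG cannot match. The search in that form thus gives no answer on inverted pairs. The pair in the loose form CANNNG, present in 14.2% of all windows, matched from -194 to -178 in Pklr and, overlapping a CCAAT box, from -167 to -151 in Arrdc4. In the 22 windows of the further targets, CACGTG was found in 2, the loose pair in 4 and a CCAAT box in 9. The repeated pairs in the forms CACGTG and CACGNG had no match there. Motifs were searched on both strands, and a match is a string of letters and not a measured binding site.

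**Figure D1:**
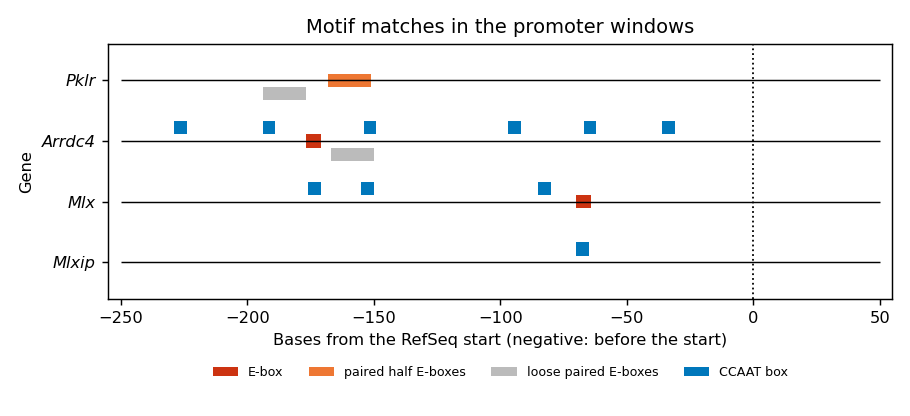
Motif matches in the RefSeq promoter windows of Pklr, Arrdc4, Mlx and Mlxip, with the distance from the annotated start in bases on the x axis and 1 line per gene. The paired motif in Pklr is from -168 to -152, the E-boxes of Arrdc4 and Mlx are from -177 to -172 and from -70 to -65, and 6 CCAAT boxes are spread over the Arrdc4 window.

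Expression was given by the authors as TPM, transcript abundances per transcript length that sum to 1000000 in each sample, so that levels can be compared between genes. They were summed over the transcripts of a gene. Values in TPM below are as deposited, and the log2 fold change (log2FC) is of 3D-bioprinted over 2D-monolayer on log2(TPM + 1) after scaling between samples, a scale that understates the change of genes with low TPM. They were tested with limma over 11960 genes whose TPM averaged 1 or more, with Benjamini-Hochberg adjustment over all of them. The 10 most abundant transcripts took between 23.4% and 26.9% of TPM, and the 4 files differed from one another in every value above 0. Beta-cell markers were present in every sample, all 10 of them at 17.4 TPM or above. Of 2 endothelial markers besides Kdr both were listed at 0, and Kdr did not exceed 1.48 TPM. The fibroblast, leukocyte, delta, PP and hepatocyte markers listed did not exceed 2.32 TPM. Of 3 alpha-cell markers Ttr and Irx2 were listed at 0 in all samples, while Gcg had 41.9 and 73.8 TPM in 2D-monolayer against 124 and 155 TPM in 3D culture. Whether the higher Gcg has a part in the results below was not tested.

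The 4 targets of the sensors were higher in 3D culture. Txnip and Gpd1 were each more than doubled, and Arrdc4 and Pklr rose by smaller amounts. The sensor gene Mlxip had a small rise, whose call held in 5 of 12 alternative settings of the processing. The gene of the shared partner, Mlx, did not pass the test. In limma's test 5 of the 6 genes measured were higher in 3D culture with an adjusted p below 0.05 and none was lower. Over all 11960 genes, 18.5% were called higher, 19.5% lower and 38.0% in either direction. In 5 of the 6 genes both 3D cultures lay above both monolayer cultures. Over all genes tested the groups were apart in 74.2%, with 3D culture above in 41.1% and below in 33.2%. A higher share of cells with a transcript and more of it per cell cannot be told apart in these bulk samples. The median log2FC of the 6 genes was 0.59, beside -0.003 over all genes tested. The smallest two-sided p of an exact permutation over 2 + 2 cultures is 0.333, and the calls below depend on the variance that limma borrows from other genes.

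**Figure D2:**
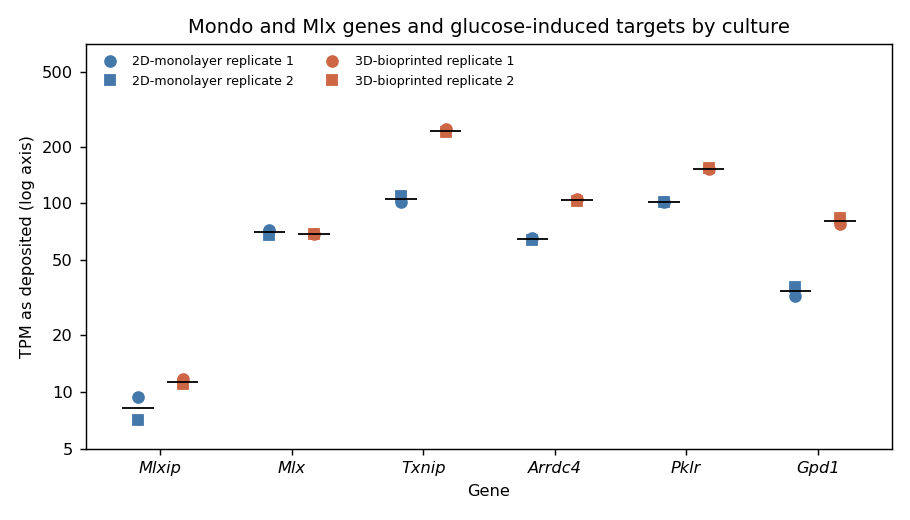
TPM as deposited on a log axis for the 6 genes measured, with 1 point per culture (circles replicate 1, squares replicate 2) and a black line at the mean of each group. Both 3D-bioprinted cultures are above both 2D-monolayer cultures for every gene but Mlx, and Txnip moves from 102 and 110 TPM to 247 and 238 TPM.

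Txnip had 102 and 110 TPM in the monolayer cultures and 247 and 238 TPM in the 3D cultures. The groups were far apart, and the lower 3D culture was above the higher monolayer culture by more than the level of either monolayer culture. The mean was 2.29 times as high in 3D culture, from 106 ± 5.85 (SD, n = 2) to 243 ± 6.89 TPM (SD, n = 2). The log2FC of Txnip was 1.14 (SE 0.079, adjusted p = 0.0035 in limma). Ordered by log2FC, Txnip came at place 147 of 11960 genes. The gene is listed with 1 transcript, ENSRNOT00000028793.6. Its call held in all 12 alternative settings, with log2FCs from 1.05 to 1.23 when each culture was left out in turn.

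Arrdc4 encodes an alpha-arrestin closely related to Txnip that also restrains glucose uptake. It had 65.9 and 63.7 TPM in 2D-monolayer against 105 and 103 TPM in 3D culture, with no overlap of the groups. The log2FC was 0.63 (SE 0.054, adjusted p = 0.0038 in limma). The rise fell almost wholly to the transcript ENSRNOT00000077479.1, which made up between 96.2% and 99.5% of Arrdc4 in every culture. The other listed transcript, ENSRNOT00000051402.5, had between 0.316 and 3.99 TPM, and its groups overlapped. Without 3D-bioprinted replicate 1 the adjusted p of Arrdc4 was 0.056 in limma, at a log2FC of 0.61. In that fit 136 of all genes were called.

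The 95% interval of the log2FC of Txnip, from 0.95 to 1.34, lay above that of Arrdc4, from 0.50 to 0.77. The ratio of Txnip to Arrdc4 TPM within a sample was 1.55 and 1.73 in monolayer and 2.35 and 2.31 in 3D culture. The groups did not overlap, and the difference of the means, 0.69, exceeded the SD of both groups (0.129 and 0.030). The exact permutation p was 0.333 (two-sided), the smallest that this design allows. The ratio does not depend on the scaling between samples.

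Pklr encodes the pyruvate kinase of liver and red blood cells, which beta cells also use for the last step of glycolysis. It had 101 and 102 TPM in 2D-monolayer against 152.5 and 153.1 TPM in 3D culture, with no overlap of the groups. The log2FC was 0.54 (SE 0.056, adjusted p = 0.0044 in limma). Without 3D-bioprinted replicate 1 the adjusted p was 0.060 in limma, at a log2FC of 0.54.

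The listed transcripts of Pklr changed by different amounts. ENSRNOT00000027700.6, the more abundant, had 85.1 and 84.2 TPM in 2D-monolayer against 111 and 114 TPM in 3D culture. ENSRNOT00000065791.2 had 16.1 and 17.6 TPM in 2D-monolayer against 41.3 and 39.5 TPM in 3D culture. The share of the latter in Pklr was therefore 15.9% and 17.2% in monolayer and 27.1% and 25.8% in 3D culture, with no overlap of the groups. The exact permutation p of this share was 0.333 (two-sided), the smallest possible. In a limma fit over 15020 transcripts, which was chosen after these values had been seen, the log2FC of ENSRNOT00000027700.6 was 0.34 (95% interval 0.21 to 0.48) and that of ENSRNOT00000065791.2 was 1.16 (95% interval 0.92 to 1.40). Both had an adjusted p below 0.05, 0.021 and 0.016 in limma. The quantification divides reads between transcripts that overlap, and which of the transcripts starts at the promoter printed above was not determined here.

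**Figure D3:**
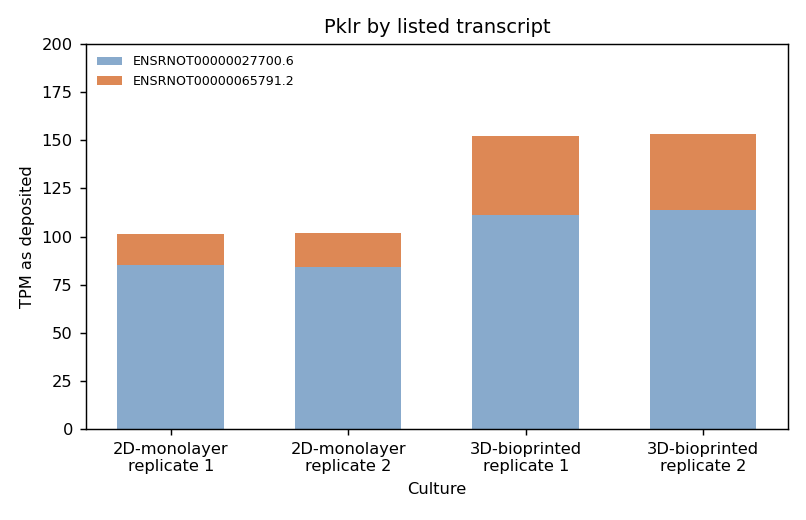
Pklr in TPM as deposited in each of the 4 cultures, stacked by the listed transcripts ENSRNOT00000027700.6 and ENSRNOT00000065791.2. The upper segment, ENSRNOT00000065791.2, grows from 16.1 and 17.6 TPM in monolayer to 41.3 and 39.5 TPM in 3D culture, and the lower from 85.1 and 84.2 TPM to 111 and 114 TPM.

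The pyruvate kinase gene of most other tissues, Pkm, was the more abundant of both in every sample. It had 428 and 403 TPM in 2D-monolayer against 563 and 514 TPM in 3D culture (log2FC 0.33, SE 0.070, adjusted p = 0.019 in limma). The call of Pkm was lost without monolayer replicate 2 (adjusted p = 0.058 in limma), without 3D-bioprinted replicate 1 (0.133) and without 3D-bioprinted replicate 2 (0.056). Pklr made up 19.1% and 20.2% of the TPM of both genes in monolayer and 21.3% and 22.9% in 3D culture. The difference of the means was 2.49 percentage points with SDs of 0.732 and 1.16, and the exact permutation p was 0.333 (two-sided).

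Gpd1 encodes the cytosolic glycerol-3-phosphate dehydrogenase, which links glycolysis to glycerol-3-phosphate and works in the shuttle that passes reducing equivalents to mitochondria. It had 32.4 and 36.1 TPM in 2D-monolayer against 78.2 and 83.4 TPM in 3D culture, and the lower 3D culture had more than double the level of the higher monolayer culture. The log2FC of Gpd1 was 1.17 (SE 0.087, adjusted p = 0.0035 in limma), the largest among the 6 genes. With each culture left out in turn it ran from 1.06 to 1.28, and the call held in all 12 alternative settings. Its interval, from 0.96 to 1.39 (95%), overlapped that of Txnip, from 0.95 to 1.34.

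The relatives of Gpd1 did not pass the test. Gpd2, the mitochondrial enzyme of the same shuttle, had 42.8 and 37.3 TPM in 2D-monolayer against 42.9 and 45.3 TPM in 3D culture. Its log2FC was 0.097 (95% interval -0.070 to 0.26, adjusted p = 0.286 in limma). Gpd1l, a cytosolic paralogue, had 6.54 and 6.0 TPM in 2D-monolayer against 7.83 and 7.27 TPM in 3D culture (log2FC 0.20, 95% interval -0.012 to 0.40, adjusted p = 0.112 in limma). Gpd1 made up 39.7% and 45.4% of the TPM of the 3 genes in monolayer and 60.7% and 61.3% in 3D culture, with no overlap of the groups. The exact permutation p of this share was 0.333 (two-sided).

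Mlxip, the gene of MondoA, was the lowest of the 6 genes in every sample. It had 9.36 and 7.07 TPM in 2D-monolayer against 11.7 and 11.1 TPM in 3D culture, and the gap between the groups was smaller than that between the monolayer cultures. The log2FC was 0.40 (SE 0.12, adjusted p = 0.044 in limma). The call held in 5 of the 12 alternative settings. It was lost without monolayer replicate 2 (log2FC 0.25, adjusted p = 0.097 in limma), without 3D-bioprinted replicate 1 (0.35, adjusted p = 0.213) and without 3D-bioprinted replicate 2 (0.44, adjusted p = 0.136). It was also lost on TPM without scaling, without the expression filter, without the intensity trend and in the fit on the most abundant transcript of each gene.

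Mlx, the shared partner of both sensors, had 72.3 and 68.1 TPM in 2D-monolayer against 68.7 and 68.9 TPM in 3D culture, so that both 3D cultures lay between the monolayer cultures. The log2FC was -0.072 (95% interval -0.20 to 0.057, adjusted p = 0.304 in limma), and it was negative and not called in all 12 alternative settings. The interval leaves room for a fall of 0.20 on the log2 scale and for a rise of 0.057.

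Ordered by level in monolayer, Txnip (106 TPM) and Pklr (101 TPM) came first, followed by Mlx (70.2 TPM), Arrdc4 (64.8 TPM), Gpd1 (34.2 TPM) and Mlxip (8.21 TPM). Txnip and Pklr differed there by less than the SD of Txnip. In 3D culture the order was Txnip (243 TPM), Pklr (153 TPM), Arrdc4 (104 TPM), Gpd1 (80.8 TPM), Mlx (68.8 TPM) and Mlxip (11.4 TPM), and the ranges of neighbours did not overlap. Mlx thus passed from the third to the fifth place while its own level stayed between the same bounds.

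**Figure D4:**
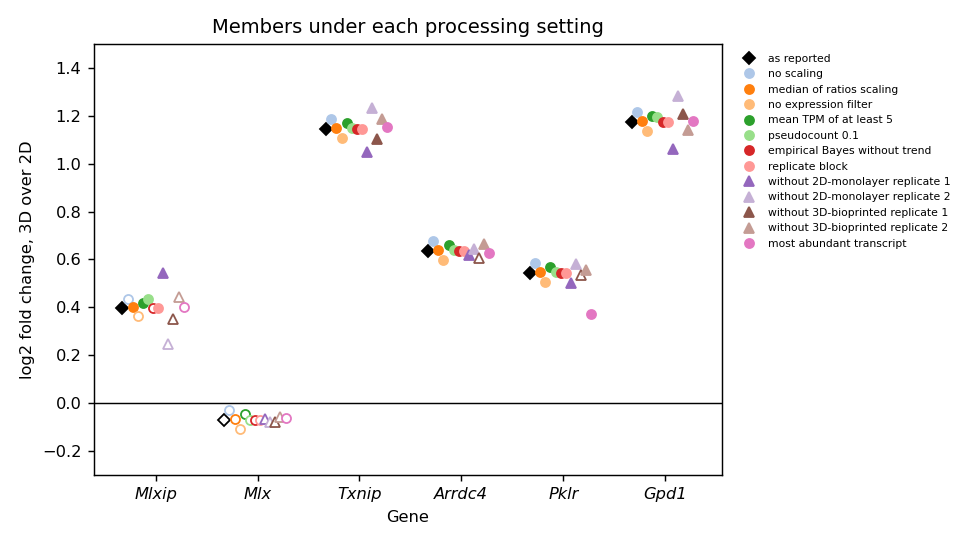
Log2 fold change of 3D-bioprinted over 2D-monolayer for the 6 genes under each processing setting, with the setting as reported as a black diamond, fits with 1 culture left out as triangles, and filled symbols where the adjusted p was below 0.05 in limma. Txnip and Gpd1 are filled in every setting, Arrdc4 and Pklr are open in 1, Mlxip is filled in 5 of the 12 alternatives and Mlx in none.

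For each gene the closest profiles were sought among genes whose TPM averaged 10 or more, as the smallest Euclidean distance of centred log2 values over the 4 samples. The nearest to Txnip among 7616 genes were AC124874.2, at a distance of 0.064, Btg1, an antiproliferative gene, at 0.078, and Gcgr, the glucagon receptor gene, at 0.081. Btg1 was also the nearest to Gpd1, at 0.036, and had 78.3 ± 4.95 TPM in 2D-monolayer against 183 ± 4.07 TPM in 3D culture (SD, n = 2 each). After it came AABR07072283.2 and Tmem163. Wdr90, Ppp2r3b and Ap4m1 were the nearest to Arrdc4, Anxa2, Zcchc7 and Apbb3 to Pklr, Sos1, Ube3a and Wapl to Mlxip, and Cog7, Gprin1 and Aars to Mlx. With 4 samples in 2 groups such a distance reflects little more than a difference between the groups of the same size, and it is given as a description.

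The surroundings of the sensors were described with 5 lists of 64 symbols, of which 63 were listed and 53 passed the expression filter. Of these 53 genes, 18 were called higher and 9 lower in limma, beside 18.5% and 19.5% of all genes tested, and their median log2FC was 0.15. Of 12 tested genes for cofactors and upstream proteins of ChREBP, 4 were higher and 1 lower, with a median of 0.24. The acetyltransferase gene Ep300 had 5.13 and 3.61 TPM in 2D-monolayer against 8.34 and 9.74 TPM in 3D culture (log2FC 0.88, adjusted p = 0.0098 in limma). Its relative Crebbp (log2FC 0.26), Hnf4a (0.29), a transcription factor that acts beside ChREBP on the Pklr promoter, and the glucose transporter gene Slc2a2 (0.39) were also higher. Xpo1, the nuclear export receptor, was lower (-0.23). Each of the 5 calls in this list was lost when either 3D culture was left out, those of Crebbp and Hnf4a also without either monolayer culture, and that of Xpo1 also without monolayer replicate 1.

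Among 10 genes of the Max and Mlx network, whose proteins compete for partners and E-boxes, 3 were higher and 1 lower, with a median of 0.10. Of all genes tested, 18.5% were called higher and 19.5% lower. Myc had 46.8 and 44.3 TPM in 2D-monolayer against 75.3 and 65.4 TPM in 3D culture (log2FC 0.57, adjusted p = 0.0081 in limma). Mycl fell from 6.74 and 7.03 TPM to 4.50 and 4.39 TPM (log2FC -0.57, adjusted p = 0.0088 in limma). The dual-specificity factor Mga had a log2FC of 0.74 and the repressor Mxd3 of 0.31. Max, the partner of Myc, had 42.2 and 36.0 TPM in 2D-monolayer against 39.9 and 38.8 TPM in 3D culture, and the sign of its log2FC, -0.028, changed with the scaling. Without 3D-bioprinted replicate 1 none of the 4 calls held, with adjusted p in limma of 0.065 for Myc, 0.075 for Mycl, 0.094 for Mga and 0.144 for Mxd3. Without 3D-bioprinted replicate 2 the call of Myc alone held.

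Among the alpha-arrestins, Arrdc3 was the one called higher besides Txnip and Arrdc4. It had 3.94 and 3.39 TPM in 2D-monolayer against 10.2 and 9.22 TPM in 3D culture (log2FC 1.17, SE 0.097, adjusted p = 0.0037 in limma). Arrdc1 was lower, with 41.1 and 39.4 TPM in 2D-monolayer against 34.1 and 35.1 TPM in 3D culture (log2FC -0.25, adjusted p = 0.019 in limma). Arrdc2 had a log2FC of 0.24 and did not pass (adjusted p = 0.212), and Arrdc5 was listed at 0. Txn1, the cytosolic thioredoxin that Txnip binds, fell from 3437 and 3337 TPM to 2548 and 2568 TPM (log2FC -0.45, adjusted p = 0.0086 in limma). Txn2, the mitochondrial thioredoxin, had a log2FC of -0.30 (adjusted p = 0.014 in limma). The thioredoxin reductase genes Txnrd1 and Txnrd2 were not called. Of 7 tested genes for alpha-arrestins and the thioredoxin system, without Txnip and Arrdc4, 1 was called higher and 3 lower. Of all genes tested, 18.5% were called higher and 19.5% lower. Without 3D-bioprinted replicate 1 the adjusted p of Arrdc3 was 0.051 in limma, and the calls of Arrdc1, Txn1 and Txn2 were lost when either 3D culture was left out.

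Pgp, the phosphatase that splits glycerol-3-phosphate, had 37.0 and 35.5 TPM in 2D-monolayer against 26.3 and 27.4 TPM in 3D culture. It was the one gene called lower among 5 for pyruvate kinase and glycerol-3-phosphate enzymes, with a log2FC of -0.46 (adjusted p = 0.0056 in limma, and 0.070 without 3D-bioprinted replicate 1). Pkm was the one called higher, and the list's median was 0.14. Of all genes tested, 18.5% were called higher and 19.5% lower.

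Further genes reported as glucose-induced targets of ChREBP in liver or islets did not move as a block. Of 27 genes 19 were tested, and 9 were called higher and 3 lower, beside 18.5% and 19.5% of all genes tested. The median log2FC was 0.24. Bhlhe40, a circadian repressor that also answers to hypoxia, had 22.9 and 20.2 TPM in 2D-monolayer against 86.4 and 79.7 TPM in 3D culture (log2FC 1.86, adjusted p = 0.0014 in limma). Tm6sf2, which acts in lipid secretion, had 4.08 and 4.63 TPM in 2D-monolayer against 13.7 and 13 TPM in 3D culture (log2FC 1.38, adjusted p = 0.0035 in limma). Rgs16, which shares the motif of Pklr with 9 bases between its outer letters, had 52.4 and 50.6 TPM in 2D-monolayer against 93.2 and 90.6 TPM in 3D culture (log2FC 0.78, adjusted p = 0.0035 in limma). The early response factor Klf10 had a log2FC of 0.81. The hormone genes Fgf21 and Angptl8 had 0.78 and 0.54. Fgf21 reached no more than 1.81 TPM, and its log2FC was 1.39 when the pseudocount was 0.1. Its mean was 0.602 TPM in 2D-monolayer and 1.78 TPM in 3D culture. It thus passed the filter of 1 TPM only through the cultures in which it was high. Its place among the 9 genes called higher rests on that, and no weight is put on it.

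The enzymes of fatty acid synthesis in this list were divided. Acaca, the acetyl-CoA carboxylase gene, was higher (log2FC 0.49, adjusted p = 0.019 in limma), as was Mid1ip1 (0.28), whose protein activates that enzyme. Khk, the fructokinase gene, was higher as well (0.37). Fasn, the fatty acid synthase gene, had 61.8 and 50.3 TPM in 2D-monolayer against 58.8 and 60.0 TPM in 3D culture and was not called (log2FC 0.047, 95% interval -0.16 to 0.26). Acly had a log2FC of 0.15 (adjusted p = 0.078 in limma). Elovl6 (-0.59), Agpat2 (-0.34) and the malic enzyme gene Me1 (-0.28) were lower. Thrsp was listed at 0, and G6pc, Gckr, Scd, Acacb, Pparg and Pdgfc were among those below the expression filter, none of them above 0.341 TPM in a culture. Of the 12 calls in the list those of Bhlhe40, Tm6sf2 and Rgs16 held without 3D-bioprinted replicate 1, and those of the same 3 genes and Klf10 held without 3D-bioprinted replicate 2. Fgf21 fell below the filter without the former. The calls of Khk and Agpat2 were also lost without either monolayer culture, and those of Mid1ip1 and Elovl6 without monolayer replicate 1. Without that culture the log2FC was 0.18 for Mid1ip1 and -0.36 for Elovl6, and without 3D-bioprinted replicate 1 it was -0.22 for Agpat2.

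**Figure D5:**
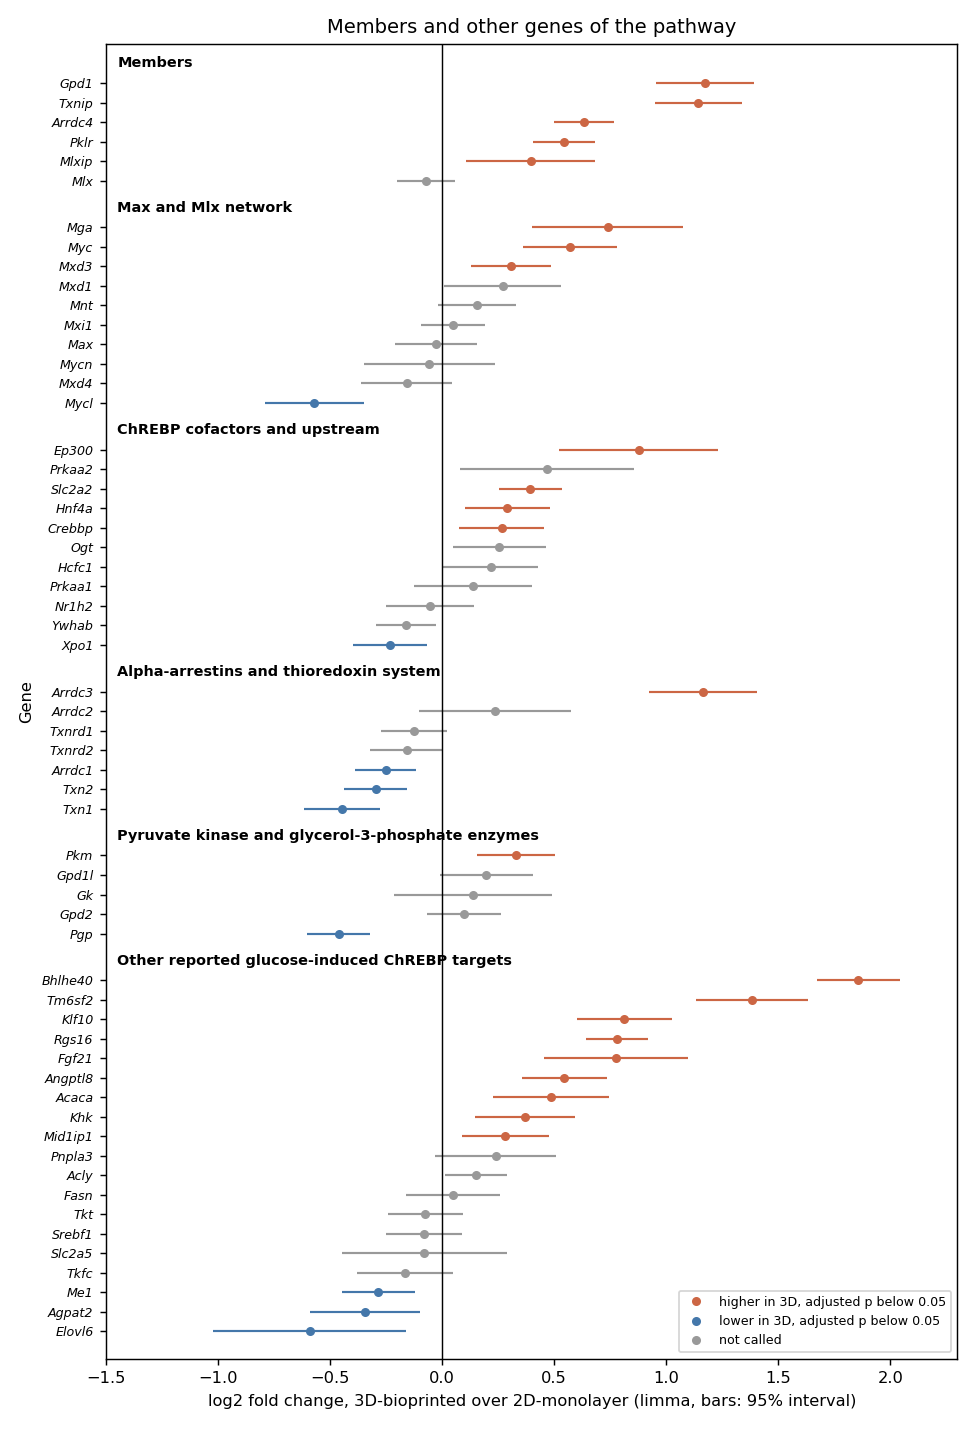
Log2 fold change of 3D-bioprinted over 2D-monolayer with its 95% interval in limma for the 6 genes measured (headed Members) and the tested genes of the 5 pathway lists, 1 of which is not drawn, with 1 gene per line, orange where higher, blue where lower and grey where not called. Of the list genes 18 are orange and 9 blue, and Bhlhe40 lies farthest to the right at 1.86.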

How the data were processed

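The authors sequenced 75-bp single-end reads of stranded mRNA libraries and checked them with FastQC 0.11.8. The reads were quantified per transcript with Salmon 1.2 on a reference that the authors name as rn4, with the human insulin gene added. They deposited TPM with decimal commas, 1 file per sample. The commas were parsed, and each sample was checked to sum to no more than 1000000. TPM keep no depth, so no counting interval or detection limit is given, and the DESeq2 test of the study was not repeated. Groups and replicate numbers were taken from the labels.

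TPM were summed per symbol, genes with a mean of at least 1 TPM were kept, and samples were scaled by TMM without weights (trimming 30% by M and 5% by A from both tails, factors from 0.960 to 1.02). In R 4.3.3, limma 3.58.1 compared log2(TPM + 1) between groups using moderated variances with an intensity trend, and adjusted p-values below 0.05 were called. Ratios within a sample were tested by exact permutation over the 4 samples. The text names the 7 genes, their transcripts, the 3 nearest profiles of each, and list genes that were called or are relatives or partners. The other list genes named (Fasn, Acly, Txnrd1, Txnrd2, Arrdc5 and those below the filter) were chosen after their values were seen. The genes and lists were chosen with earlier results of these data known. The fit was tested on simulated data, with a spread that was set and not taken from these samples. It recovered 69.2% of changes of 0.5 on the log2 scale, with a median estimate of 0.44. All changes of 1 and 2 were recovered, and 1.1% of the calls were false. Smaller changes were not simulated. RefSeq was used for names and promoter windows alone, since GRCr8 is not the build of the files. Results for some list genes are not reported here.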

Additional observations from a re-analysis of the deposited data

How the results depend on the processing

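Precision was limited by 2 cultures per group, and TPM keep no read counts from which counting error could be given. Txnip and Gpd1 kept their call and Mlx its lack of one in all 12 alternative settings, and Arrdc4 and Pklr lost theirs without 3D-bioprinted replicate 1 alone. Mlxip lost its call on TPM without scaling (log2 fold change 0.43, limma adjusted p = 0.057), without the filter on low TPM (0.36, adjusted p = 0.115), without the intensity trend (0.40, adjusted p = 0.055) and with the most abundant transcript of each gene (0.40, adjusted p = 0.053). With each culture left out in turn, log2 fold changes ran from 0.25 to 0.54 for Mlxip, from 0.61 to 0.66 for Arrdc4 and from 0.50 to 0.58 for Pklr. With the most abundant transcript of each gene, Pklr had a smaller log2 fold change of 0.37. Txnip, Arrdc4 and Gpd1 had 1.15, 0.62 and 1.18 in that setting. The number of genes called ran from 136 (without 3D-bioprinted replicate 1) and 1037 (without 3D-bioprinted replicate 2) to 4515, beside 4541 with all 4 cultures, that of the 6 genes from 2 to 5 and that of list genes from 3 to 23. These fits hold fewer samples, and the lone culture of a group is assumed to vary as the others. At an adjusted p below 0.01, 1418 genes, 4 of the 6 and 12 list genes were called. Max changed sign on TPM without scaling (log2 fold change 0.014) and ran from -0.11 to 0.045 with each culture left out. The calls of Agpat2, Crebbp, Elovl6, Hnf4a, Khk, Mid1ip1 and Xpo1 were each lost in at least 5 settings. No pairing was seen between cultures that share a replicate number, whose deviations within the groups correlated at -0.006 over 11960 genes. With the replicate number as a block 4814 genes, 5 of the 6 and 27 list genes were called, but Crebbp was not (adjusted p = 0.058 in limma). The within-sample ratios kept their direction with each culture left out. The planned share of Mlxipl in the sensor transcripts was not run, as Mlxipl was not analysed here. Apart from the settings named, the causes of these shifts were not tested.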
